A study of Mus musculus with 9 samples.

Results

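A set of 6 genes that mark horizontal cells, Lhx1, Onecut1, Onecut2, Calb1, Gja10 and Prox1, was followed in whole mouse retina. They were taken by gene symbol from the deposited tables, which list 21769 genes, and all 6 were found and passed the filter on low counts. Polyadenylated RNA was sequenced in 9 libraries of 2 retinae each, in 3 groups of 3 biological replicates. The rd10 retinae came from mice at postnatal day 61 and are labelled degenerated. Mice of this strain carry a mutation of Pde6b, a subunit of the rod phosphodiesterase, and lose their rods after birth. The GFP retinae express green fluorescent protein and are labelled normal. Their protocol gives a line called Gg13 at day 42, read here as the GFP group because no other group is left for it. The promoter that drives the protein is not given in the sources used here. The wild type retinae, also labelled normal, came from mice at day 48. Age and genotype therefore cannot be told apart in any comparison. In whole tissue, fewer cells of a type and less RNA per cell cannot be told apart either.

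Horizontal cells are inhibitory interneurons of the outer retina. Their processes meet the terminals of rods and cones, receive their glutamate signal and feed back on them, which sharpens contrast. Onecut1 and Onecut2 encode homeodomain proteins that drive the birth of these cells, and Prox1 encodes a homeodomain protein needed for their formation. Lhx1 encodes a LIM homeodomain protein that holds the cells in their layer. Calb1 encodes the calcium buffer calbindin, and Gja10 encodes connexin 57, the gap junction protein that couples mouse horizontal cells to each other. Several of the 6 genes are also used elsewhere in the retina. Prox1 marks AII amacrine and some bipolar cells, Calb1 is made by amacrine and ganglion cells, and Onecut1 and Onecut2 by ganglion cells.

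The sequences just upstream of Lhx1 and Prox1 are shown because these members had the most similar profiles over the 9 libraries, as described further on. RefSeq windows were matched for 4 of the 6 members on build GRCm38.p6, and the 250 bases before the annotated start were read. Capitals mark the only motif match found in each. In Lhx1 (chr11:84525535-84525784, minus strand) this is CCAAT on the opposite strand, beginning 68 bases before the start. In Prox1 (chr1:190170828-190171077, minus strand) it is TATAAA on the opposite strand, beginning 34 bases before the start.
Lhx1: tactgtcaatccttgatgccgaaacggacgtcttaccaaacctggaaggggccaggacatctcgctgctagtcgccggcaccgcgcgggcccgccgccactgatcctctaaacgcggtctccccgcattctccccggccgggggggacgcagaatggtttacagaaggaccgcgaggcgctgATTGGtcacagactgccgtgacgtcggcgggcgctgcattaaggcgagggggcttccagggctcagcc
Prox1: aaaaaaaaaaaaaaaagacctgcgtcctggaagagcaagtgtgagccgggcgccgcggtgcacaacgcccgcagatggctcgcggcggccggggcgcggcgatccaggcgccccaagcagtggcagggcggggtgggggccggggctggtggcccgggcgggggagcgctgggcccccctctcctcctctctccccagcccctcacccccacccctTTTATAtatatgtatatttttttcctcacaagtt
The 5 motifs searched on both strands do not overlap one another in these windows. CCAAT lies in 33.8% of 32851 RefSeq windows of this length and TATAAA in 12.4%. ATCGAT, a core of sites bound by Onecut proteins, lies in 0.728% of all windows, TAATTA, a core of LIM homeodomain sites, in 4.84%, and TGACGTCA, the cAMP response element, in 1.55%. Those 3 strings were in none of the windows of the 4 matched members. GC content was 64.8% in both printed windows. A further annotated start of Prox1 had none of the 5 motifs before it.

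Library totals ran from 9597635 to 12149448 counts, and replicates of a group differed by more than counting noise, with a chi-square per degree of freedom from 13.0 to 76.1. Levels are given as CPM, counts scaled to a total of 1000000 per library, with library sizes adjusted by TMM, a trimmed mean of the log ratios between libraries. Fold changes and adjusted p-values come from edgeR's quasi-likelihood F-test over 14300 tested genes with Benjamini-Hochberg adjustment, and a gene was called at an adjusted p under 0.05. Of these genes, 28.4% were called in rd10 against wild type (14.5% higher, 13.9% lower) and 30.2% in rd10 against GFP (15.2% higher). Genes of the lens together exceeded 1000 CPM, here without TMM, in rd10 2 (5880), GFP 1 (3740), wild type 2 (4190) and wild type 3 (2020). GFP 2 and wild type 3 stood apart in transcripts in the longest 10% (6792 bases or more), whose median lay 0.434 and 0.358 below the mean of all libraries on the log2 scale. In rd10 3 that median lay 0.427 above it.

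Lhx1 rose in rd10 retinae. Its level was 12.4, 11.2 and 15.5 CPM in rd10 1, 2 and 3, against 6.71, 4.59 and 6.01 CPM in GFP and 6.46, 5.58 and 4.41 CPM in wild type. All 3 rd10 libraries lay above all 6 normal libraries, and the GFP and wild type levels overlapped. The log2 fold change was 1.25 (SE 0.256, 95% interval 0.68 to 1.81) against wild type, a 2.37-fold higher level with an adjusted p of 0.00565. Against GFP it was 1.17 (SE 0.255), a 2.25-fold higher level with an adjusted p of 0.00732. Lhx1 lies on mm9 chromosome 11 from 84332881 to 84339036 on the minus strand, and no other gene of the tables overlaps it. Its counts ran from 40 in GFP 2 to 210 in rd10 3.

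Onecut2 rose as well. It had 30.5, 32.6 and 23.4 CPM in rd10, against 12.0, 20.8 and 14.5 CPM in GFP and 12.4, 9.14 and 15.04 CPM in wild type. The rd10 libraries again all lay above the normal ones, though rd10 3 at 23.4 CPM came close to GFP 2 at 20.8 CPM. Against wild type the log2 fold change was 1.24 (SE 0.261, 95% interval 0.66 to 1.82), 2.36-fold, with an adjusted p of 0.00635. Against GFP it was 0.88 (SE 0.258, 95% interval 0.31 to 1.45), 1.84-fold, with an adjusted p of 0.0271. This second call ended when rd10 1, rd10 2, GFP 1 or GFP 3 was left out, at log2 differences of 0.84, 0.80, 0.73 and 0.84 (edgeR adjusted p = 0.0793, 0.0862, 0.0724 and 0.0805). Onecut2 has the longest transcript of the 6 genes (16234 bases), and with the trend of counts with transcript length removed its differences were 0.81 against wild type (adjusted p = 0.166) and 0.50 against GFP (adjusted p = 0.374). It lies on mm9 chromosome 18 from 64500018 to 64558142.

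Onecut1, the close relative of Onecut2, did not pass. It had 2.85, 2.25 and 6.20 CPM in rd10, against 2.72, 2.64 and 1.14 CPM in GFP and 3.13, 1.16 and 1.30 CPM in wild type. Only rd10 3 stood above every normal library, and rd10 2 lay below wild type 1 and both GFP 1 and GFP 2. Its log2 difference was 1.02 (95% interval -0.20 to 2.23, adjusted p = 0.187) against wild type and 0.80 (-0.40 to 2.00, adjusted p = 0.282) against GFP. The gene rested on 12 to 84 counts per library, and a difference of the size seen for Onecut2 lay inside its interval. Without rd10 3 the difference was 0.48 against wild type and 0.25 against GFP. Without wild type 1 it was 1.64 against wild type (edgeR adjusted p = 0.0751), and without GFP 3 it was 0.50 against GFP. It lies on mm9 chromosome 9 from 74709728 to 74737454 on the plus strand.

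Prox1, per length the most abundant of the 4 transcription factor genes, was higher in every rd10 library but did not pass the test. It had 151.5, 128.4 and 213.5 CPM in rd10, against 120.3, 35.1 and 100.7 CPM in GFP and 106.7, 70.1 and 45.8 CPM in wild type. The highest normal library, GFP 1 at 120.3 CPM, came close to the lowest rd10 library, rd10 2. The log2 difference of 1.15 against wild type (SE 0.421, 95% interval 0.22 to 2.08) had an adjusted p of 0.0631 and did not pass. Against GFP the difference was 0.94 (SE 0.418, 95% interval 0.02 to 1.87) with an adjusted p of 0.108. The low levels of Prox1, whose transcript is 7913 bases long, were in GFP 2 and wild type 3, the libraries poor in long transcripts. In the same libraries Onecut2 (16234 bases) had the highest level of its group and Gja10 (1518 bases) the lowest. Whether length plays a part was not tested. Against wild type the gene passed when wild type 1 was left out (1.53, edgeR adjusted p = 0.0415) and when GFP 1 or GFP 2 was (1.17 in both, adjusted p = 0.0484 and 0.00664). With any other single library left out it did not pass, and against GFP it passed in none of these fits. Without rd10 3 the difference was 0.94 against wild type (edgeR adjusted p = 0.187) and 0.72 against GFP (adjusted p = 0.297). Without wild type 3 it was 0.89 against wild type (edgeR adjusted p = 0.189). Without both GFP 2 and wild type 3 the difference was 0.89 against wild type (edgeR adjusted p = 0.0179) and 0.57 against GFP (adjusted p = 0.0888). With the length trend removed, Prox1 passed in both comparisons, at 0.88 (edgeR adjusted p = 0.0286) and 0.77 (adjusted p = 0.0461). Over 22 alternatives its adjusted p ran from 0.00664 to 0.496 against wild type and from 0.0345 to 0.586 against GFP. It passed in 10 of them against wild type and in 2 against GFP. Prox1 lies on mm9 chromosome 1 from 191945658 to 191994559 on the minus strand.

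**Figure D1:**
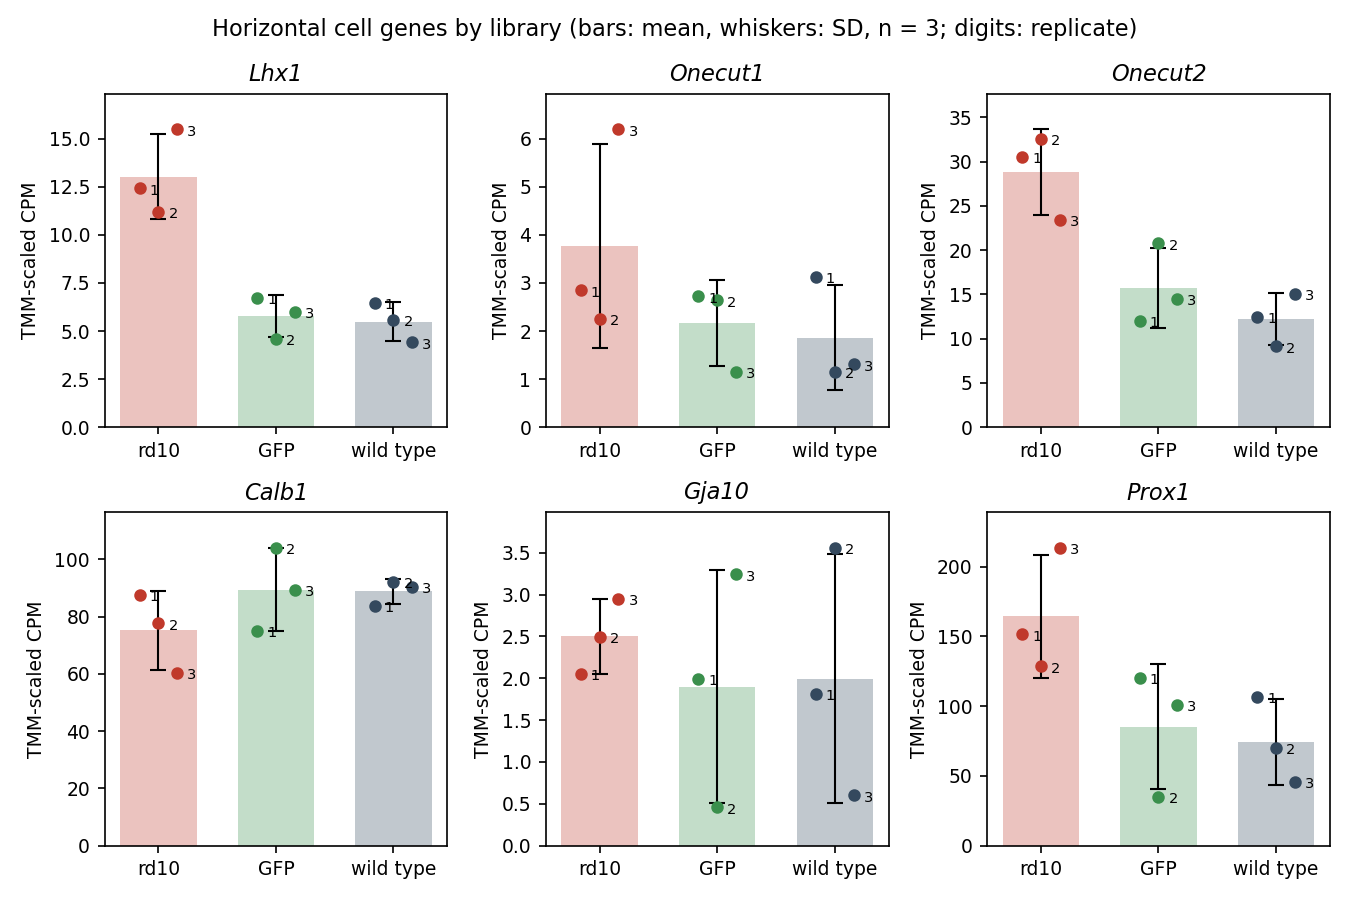
TMM-scaled CPM (vertical axes) of the 6 horizontal cell genes in rd10, GFP and wild type retina; points are libraries with their replicate number, bars are means and whiskers are the SD of 3 libraries. The rd10 libraries lie above all 6 normal libraries for Lhx1, Onecut2 and Prox1, while Onecut1, Calb1 and Gja10 overlap between the groups.

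Calb1 did not follow the transcription factor genes. It had 87.7, 77.7 and 60.4 CPM in rd10, against 75.0, 104.1 and 89.3 CPM in GFP and 83.9, 92.2 and 90.6 CPM in wild type. The rd10 levels overlapped those of both normal groups, with rd10 3 the lowest of all 9 libraries. The log2 difference was -0.24 against wild type (95% interval -0.62 to 0.14, adjusted p = 0.322) and -0.25 against GFP (-0.63 to 0.14, adjusted p = 0.295). Both intervals leave out a doubling, and both allow a lower level in rd10. Without rd10 3 the differences were -0.0765 and -0.0981, and without GFP 2 that against GFP was -0.124. The sign depended on the scaling: by library totals the differences were 0.05 and 0.08, neither of them called. Scaled to the summed counts of amacrine, ganglion and bipolar genes, Calb1 was called lower, at -0.91 against wild type (edgeR adjusted p = 0.00294) and -0.90 against GFP (adjusted p = 0.00307). With that scaling 7344 of 14300 tested genes were called lower against wild type and 7208 against GFP. The median of all genes was then -0.71 against wild type and -0.68 against GFP. Calb1 lies on mm9 chromosome 4 from 15808411 to 15833856, and its counts ran from 819 to 1110.

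Gja10 did not pass in either comparison. It had 2.05, 2.50 and 2.95 CPM in rd10, against 2.00, 0.459 and 3.24 CPM in GFP and 1.82, 3.56 and 0.602 CPM in wild type. The rd10 levels lay inside the range of both normal groups, whose lowest libraries were again GFP 2 and wild type 3. These held 4 and 6 counts, and the exact 95% binomial interval, which covers counting error only, ran from 0.114 to 1.07 CPM without TMM in GFP 2 and from 0.219 to 1.30 in wild type 3. The log2 difference was 0.32 against wild type (95% interval -1.16 to 1.80, adjusted p = 0.744) and 0.38 against GFP (-1.10 to 1.86, adjusted p = 0.69). Without GFP 2 and wild type 3 it turned to -0.11 and -0.07. Gja10 lies on mm9 chromosome 4 from 32687840 to 32689357, a span of 1518 bases that was taken as its length here.

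Against wild type, 2 of the 6 genes were higher, 0 were lower and 4 did not pass, beside 14.5% of all tested genes called higher. Against GFP the same 2 genes were higher, beside 15.2% of all genes. The rd10 libraries lay above all 3 libraries of the normal group for 3 of 6 genes in each comparison, where this held for 26.1% of all tested genes against wild type and 25.1% against GFP. The median log2 fold change of the 6 was 1.08 against wild type and 0.84 against GFP, with medians of -0.03 and -0.02 over all genes. Both comparisons share the rd10 libraries. Without GFP 2 and wild type 3, 3 members passed against wild type (Lhx1 at 1.11, edgeR adjusted p = 0.00791, Onecut2 at 1.42, adjusted p = 0.00133, and Prox1). Against GFP, Lhx1 (1.03, edgeR adjusted p = 0.0108) and Onecut2 (1.12, adjusted p = 0.00436) passed then. Over all genes, 2373 were called higher against wild type and 2434 against GFP in that fit, where the fit of all libraries called 2067 and 2174. Without the 4 libraries with lens genes above 1000 CPM, which leaves 1 wild type library, 0 members passed against wild type and 1, Lhx1, passed against GFP. Lhx1 and Onecut2 then differed from wild type by 1.10 and 1.11 on the log2 scale (edgeR adjusted p = 0.232 and 0.194), and 543 genes, 86 of them higher, were called in all.

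**Figure D2:**
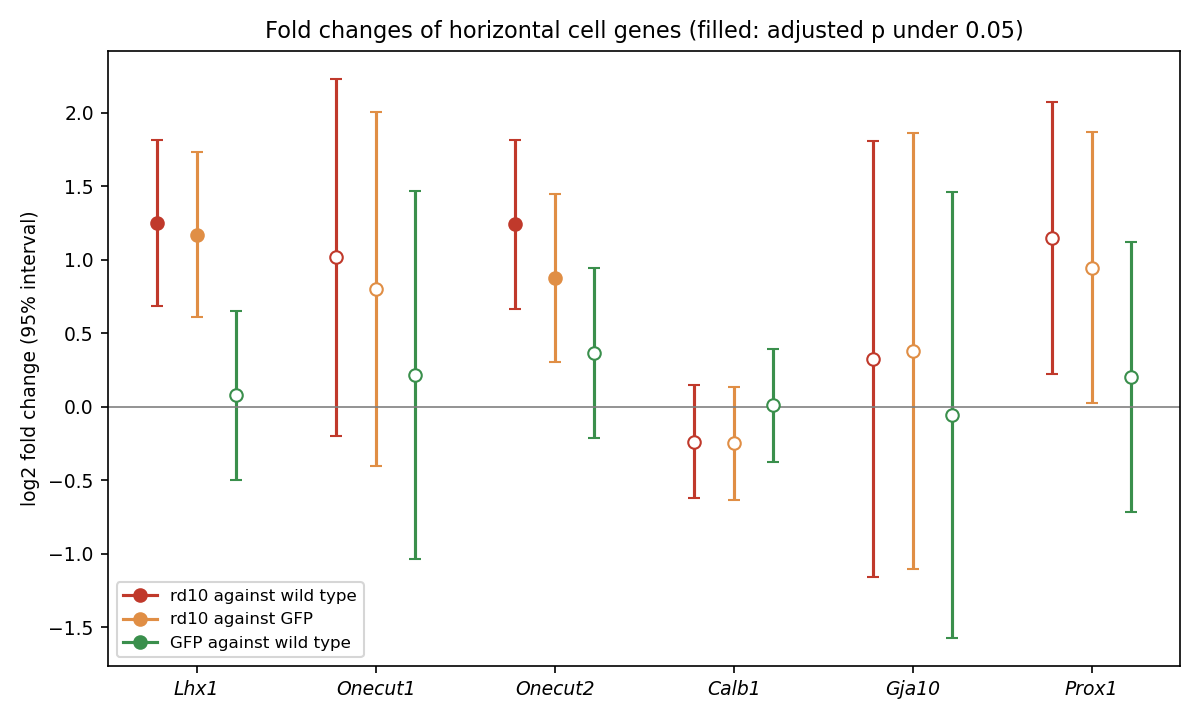
Log2 fold change (vertical axis) of each horizontal cell gene in rd10 against wild type, rd10 against GFP and GFP against wild type; whiskers are 95% intervals and filled points have an adjusted p under 0.05. Lhx1 and Onecut2 are filled in both rd10 comparisons, the interval of Prox1 lies just above 0 in both, and those of Onecut1 and Gja10 are the widest.

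GFP retinae did not differ detectably from wild type retinae in any of the 6 genes. The log2 difference was 0.08 for Lhx1 (95% interval -0.50 to 0.65), 0.22 for Onecut1 (-1.03 to 1.47) and 0.36 for Onecut2 (-0.21 to 0.94). It was 0.01 for Calb1 (-0.38 to 0.39), -0.06 for Gja10 (-1.57 to 1.46) and 0.20 for Prox1 (-0.72 to 1.12). Their levels overlapped for all 6 genes, where 3.99% of all tested genes did not overlap. Over all genes, edgeR's test called 0 of 14300 (0%), with 214 at an unadjusted p under 0.05, while DESeq2 called 2 and limma voom 0. The intervals still allow a doubling for Onecut1, Gja10 and Prox1.

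Divided by transcript length, Prox1 and Calb1 were the most abundant of the 6 genes and Onecut1 the least abundant. In rd10 the level per length was 20.8 CPM per kilobase for Prox1, 17.8 for Calb1, 3.39 for Lhx1, 1.78 for Onecut2, 1.65 for Gja10 and 0.952 for Onecut1. The libraries of Prox1 and Calb1 overlapped there, and those of Onecut2, Gja10 and Onecut1 all overlapped with one another. In GFP retinae Calb1 led with 21.2 CPM per kilobase, before Prox1 (10.8), Lhx1 (1.50), Gja10 (1.25), Onecut2 (0.969) and Onecut1 (0.548). In wild type the order was Calb1 (21.1 CPM per kilobase), Prox1 (9.38), Lhx1 (1.43), Gja10 (1.31), Onecut2 (0.752) and Onecut1 (0.471). Calb1 and Prox1 did not overlap in either normal group. Gja10 overlapped with Lhx1, Onecut2 and Onecut1 in both normal groups. Onecut2 overlapped with Lhx1 in GFP but not in wild type retinae, and with Onecut1 in wild type but not in GFP retinae. Lengths are those of the longest GENCODE transcript, or of the deposited span for Gja10.

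The 6 genes had unlike profiles from library to library. After centring each gene on its mean, Lhx1 and Prox1 had the most similar profiles over the 9 libraries, with a root mean square difference of 0.369 on the log2 scale. The least similar pairs, Onecut1 with Gja10 and Onecut2 with Gja10, both had 1.09. Gja10 had 4 counts in GFP 2 and 6 in wild type 3, and counting error was not removed from these differences. GFP 2 and wild type 3 held the lowest level of their group for Lhx1, Gja10 and Prox1, and the highest level of their group for Onecut2. The centred values in GFP 2 were -1.43 for Prox1 and -1.65 for Gja10, but 0.25 for Onecut2 and 0.31 for Calb1. Onecut2 has the longest transcript of the 6 and Gja10 the shortest.

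**Figure D3:**
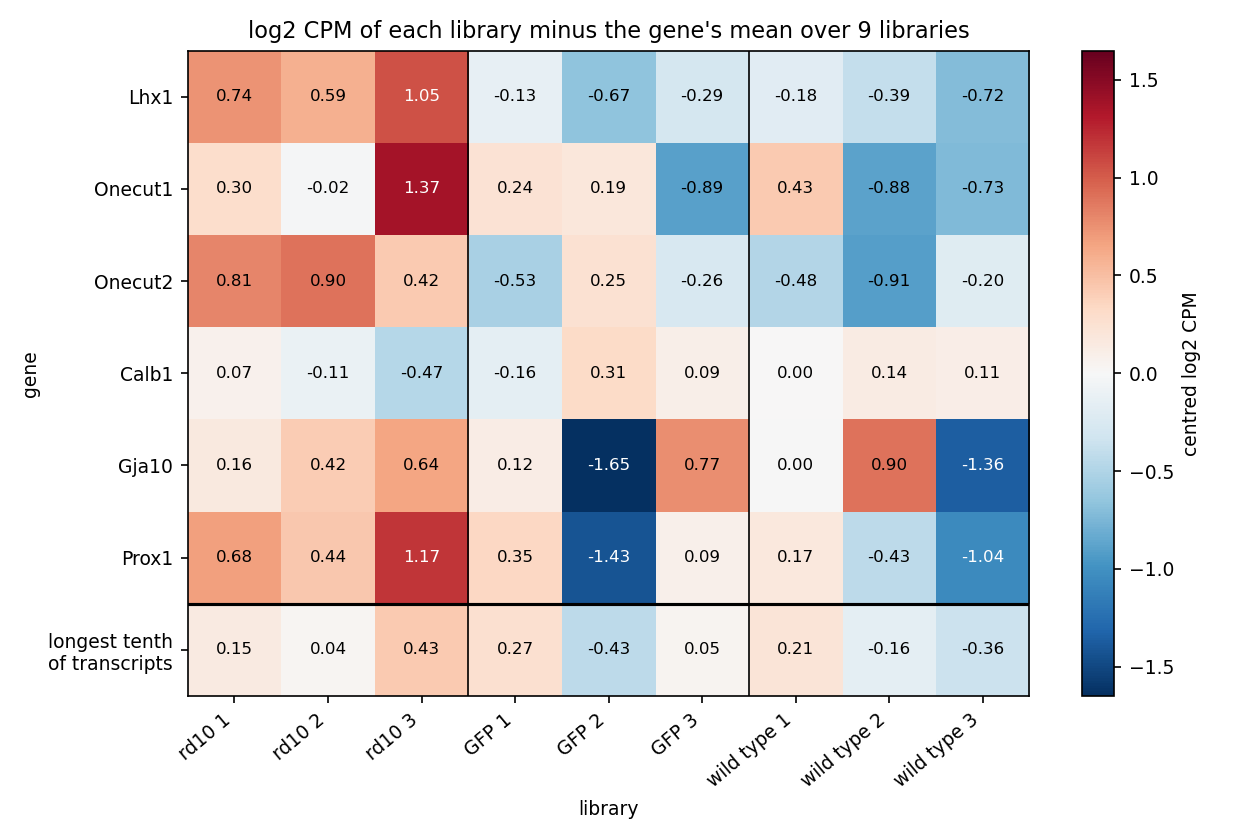
Log2 CPM of each library minus the mean of the gene over all 9 libraries (colour and printed value), with libraries on the horizontal axis and genes on the vertical axis; the bottom row is the median of the longest 10% of transcripts. Lhx1, Onecut2, Gja10 and Prox1 are above 0 in all 3 rd10 libraries, and GFP 2 and wild type 3 are the lowest libraries for Lhx1, Gja10, Prox1 and the longest transcripts.

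Ratios of one member to another within a library do not depend on the scaling of libraries, so the proportions among the 6 genes were compared directly. For each of 15 pairs, the log2 ratio in the 3 rd10 libraries was set against the 6 normal libraries by an exact two-sided permutation test over 84 regroupings, which cannot give a p below 0.0238. The 3 pairs that reached this p all held Calb1, and their groups did not overlap. The ratio of Lhx1 to Calb1 averaged -2.52 ± 0.487 in rd10 (SD, n = 3, exact p = 0.0238) and -3.99 ± 0.386 in normal retinae (SD, n = 6), a 2.75-fold difference. That of Onecut2 to Calb1 averaged -1.38 ± 0.136 in rd10 and -2.71 ± 0.335 in normal retinae, 2.51-fold. That of Calb1 to Prox1 averaged -1.11 ± 0.615 in rd10 and 0.29 ± 0.858 in normal retinae, so that Prox1 was 2.64-fold higher relative to Calb1. After Benjamini-Hochberg adjustment over the 15 pairs these had an adjusted p of 0.119 in the exact test, so 0 of 15 pairs passed. With the smallest p at 0.0238, a pair could pass only if many of the 15 reached it together. The count of 0 therefore says little about any single pair. Among the 4 transcription factor genes the ratios moved by -0.28 to 0.34 on the log2 scale, with exact p from 0.452 to 0.976.

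Among 10890 genes with a mean of at least 5 CPM, those with the profile most like each member over the 9 libraries are given as a description, up to 3 per member. All of them share the libraries, their depth and their composition with the member. Lhx1 was closest to Grm6, by which ON bipolar cells sense glutamate (root mean square difference 0.0549 on the log2 scale), then to Zeb2 (0.0813) and Sema3e (0.0954). Calb1 was closest to Sucla2, a subunit of succinyl-CoA ligase (0.0445), then to Ndufs1, a subunit of respiratory complex I (0.0547), and Mbd2 (0.0652). Prox1 was closest to Trio (0.0705), Sdk1, an adhesion molecule of retinal synapses (0.0812), and Lphn3 (0.109). Onecut2 was closest to Elavl4, a neuronal RNA-binding protein (0.155), Nipal2 (0.173) and Efna5 (0.177). The low-count members had more distant neighbours, which included Zfp704 (0.335) and Pcdhb15 (0.336) for Onecut1. For Gja10 they were Ksr1 (0.340), Eif4ebp2 (0.349) and Lrp5 (0.358).

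Other genes that act in the formation of horizontal cells were mostly higher in rd10 with TMM scaling. Of 9 listed genes 7 were tested, and 6 of them were higher and 0 lower against wild type, with a median log2 fold change of 0.90. Against GFP 4 were higher and 0 lower, with a median of 0.65. The share of all tested genes called higher was 14.5% against wild type and 15.2% against GFP. Neurod4, a bHLH factor of developing interneurons, had 352.0 ± 32.9 CPM in rd10 retinae and 140.7 ± 24.6 CPM in wild type (SD, n = 3 each), 2.50-fold, with an edgeR adjusted p of 0.000961. Tfap2b and Tfap2a, AP-2 factors of horizontal and amacrine cells, were 1.87-fold and 1.72-fold higher. Sall3, a zinc finger factor, and Onecut3 also passed against wild type. Rorb, a nuclear receptor gene also used in photoreceptors, was not called, at -0.64 on the log2 scale (edgeR adjusted p = 0.298). Foxn4 and Ptf1a, which act upstream of the Onecut genes in progenitors, fell below the count filter. Without GFP 2 and wild type 3, 5 were higher and 1 lower against wild type and 3 were higher against GFP. Without the 4 libraries with lens genes above 1000 CPM, which leaves 1 wild type library, the medians were 0.73 against wild type and 0.57 against GFP. Scaled to the summed counts of inner retinal neuron genes, 1 was higher and 1 lower against wild type (median 0.23), and 0 were called against GFP (median -0.01). That sum, of the amacrine, ganglion and bipolar genes, holds Tfap2a and Tfap2b themselves, so the scaling is not independent of this list.

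Partners of LIM homeodomain proteins such as Lhx1 were called in both directions. Of 8 tested, 2 were higher, 2 lower and 4 not called against wild type, with a median of 0.46. The shares over all tested genes were 14.5% higher and 13.9% lower, and counts this small do not set the list apart from them. Against GFP 1 was higher and 2 were lower, with a median of 0.16. Ldb1, the adaptor that joins LIM homeodomain proteins into complexes, had 173.9 ± 17.2 CPM in rd10 retinae and 115.1 ± 1.70 CPM in wild type, 1.51-fold higher (edgeR adjusted p = 0.0108). Its relative Ldb2 was 1.48-fold higher against wild type and missed the threshold against GFP (edgeR adjusted p = 0.0647). Ssbp4, of a family that binds Ldb1, fell to 68.8 ± 4.25 CPM in rd10, against 189.5 ± 23.0 CPM in wild type, with a log2 change of -1.46. Lmo1, a LIM-only protein that competes for Ldb1, fell to 10.7 ± 1.35 CPM, against 27.9 ± 9.17 CPM in wild type, with a log2 change of -1.39. Leaving out GFP 2 and wild type 3 gave 3 higher and 2 lower against wild type, and 2 higher and 2 lower against GFP. Leaving out the lens libraries, which leaves 1 wild type library, gave medians of 0.64 against wild type and 0.03 against GFP. With the inner retinal scaling 0 were higher and 3 lower in both comparisons (medians -0.22 and -0.50).

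Of 10 further genes enriched in horizontal cells, 4 were higher and 0 lower in both rd10 comparisons with TMM scaling, with medians of 0.43 and 0.48. The share of all tested genes called higher was 14.5% against wild type and 15.2% against GFP. The direction depended on the scaling: relative to inner retinal neuron genes, 1 was higher and 3 were lower in both comparisons. The medians were then -0.26 and -0.18. The counts summed for that scaling include Nefl, Nefm and Nefh of this list, so it is not independent of the list. Megf10 and Megf11, transmembrane receptors that set the spacing of horizontal cells, were 2.58-fold and 1.68-fold higher than in wild type. Megf10 had 70.4 ± 10.9 CPM in rd10 retinae and 27.3 ± 8.43 CPM in wild type, with an edgeR adjusted p of 0.00215, and it is also made by glia. Slc4a3, an anion exchanger, was 1.74-fold higher. The neurofilament genes Nefl, Nefm and Nefh, which horizontal cells share with ganglion cells, were among the 6 that did not pass, with log2 differences of 0.48, 0.37 and 0.26. The counts without GFP 2 and wild type 3 were 5 higher against wild type and 4 against GFP. Without the lens libraries, which leaves 1 wild type library, the medians were 0.67 and 0.59.

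Genes of inhibitory transmission, ion transport and glutamate reception followed next. Of 13 tested, 7 were higher, 1 lower and 5 not called in both comparisons, with medians of 0.59 against wild type and 0.57 against GFP. The share of all tested genes called higher was 14.5% and 15.2%. Slc32a1, the vesicular transporter of GABA, had 173.1 ± 15.7 CPM in rd10 retinae and 105.5 ± 1.48 CPM in wild type, 1.64-fold higher (edgeR adjusted p = 0.00385). Gad2, a GABA-synthesising enzyme, was 1.66-fold higher. Gad1, Slc32a1 and Gad2 also stand in the amacrine list. Without GFP 2 and wild type 3 the counts were 7 higher and 1 lower in both comparisons. Over the 12 genes tested without the lens libraries, which leaves 1 wild type library, the medians were 0.46 against wild type and 0.64 against GFP. Relative to inner retinal neuron genes, 0 of 13 were higher and 2 were lower in both comparisons (medians -0.09 and -0.08). Gad1, Gad2 and Slc32a1 are themselves part of the counts summed for that scaling.

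All 6 genes of the wiring list passed in both comparisons with TMM scaling, 5 higher and 1 lower, beside 28.4% and 30.2% of all tested genes. Their median log2 fold change was 0.79 against wild type and 0.80 against GFP. Lrrc4 encodes the adhesion molecule NGL2 of horizontal cell axon tips, and Ntng2 encodes its partner netrin-G2, which rods carry. Lrrc4 had 52.7 ± 8.11 CPM in rd10 retinae and 33.3 ± 2.72 CPM in wild type, 1.58-fold higher (edgeR adjusted p = 0.0129). Ntng2 fell to 31.3 ± 4.79 CPM, against 124.8 ± 18.3 CPM in wild type, with a log2 change of -1.99 (edgeR adjusted p = 9.23e-05). Sema6a, a transmembrane semaphorin, was 1.87-fold higher, its receptor gene Plxna4 2.14-fold and the netrin receptor gene Unc5c 2.33-fold. Without GFP 2 and wild type 3, 4 were higher and 1 lower against wild type, and 3 were higher and 1 lower against GFP. The lens libraries left out, which leaves 1 wild type library, the medians were 0.67 against wild type and 0.95 against GFP. Scaled to inner retinal neuron genes, 0 were higher and 1 lower in both comparisons (medians 0.10 and 0.13).

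Genes of other calcium-binding proteins were compared beside Calb1. Of 8 tested, 2 were higher, 1 lower and 5 not called in both comparisons, with medians of 0.44 and 0.38. The shares over all tested genes were 14.5% higher and 13.9% lower against wild type, and 15.2% and 15% against GFP. Counts this small do not set the list apart from those shares. Ncald, neurocalcin delta, had 190.1 ± 8.46 CPM in rd10 retinae and 105.6 ± 9.49 CPM in wild type, 1.80-fold higher (edgeR adjusted p = 0.00218), and Hpca, hippocalcin, was 1.41-fold higher. Hpcal1 fell to 49.5 ± 3.53 CPM, against 88.3 ± 13.7 CPM in wild type, with a log2 change of -0.84. Calb2, the calretinin gene and the nearest relative of Calb1 in the list, had a log2 difference of 0.34 against wild type (95% interval -0.05 to 0.72, edgeR adjusted p = 0.172). In the fit that left out GFP 2 and wild type 3, 3 were higher and 1 lower in both comparisons. In that without the lens libraries, which leaves 1 wild type library, the medians were 0.58 against wild type and 0.27 against GFP. By the inner retinal scaling 0 were higher and 1 lower in both comparisons (medians -0.24 and -0.28). Calb2 and Scgn of this list are themselves part of the counts summed for that scaling.

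**Figure D4:**
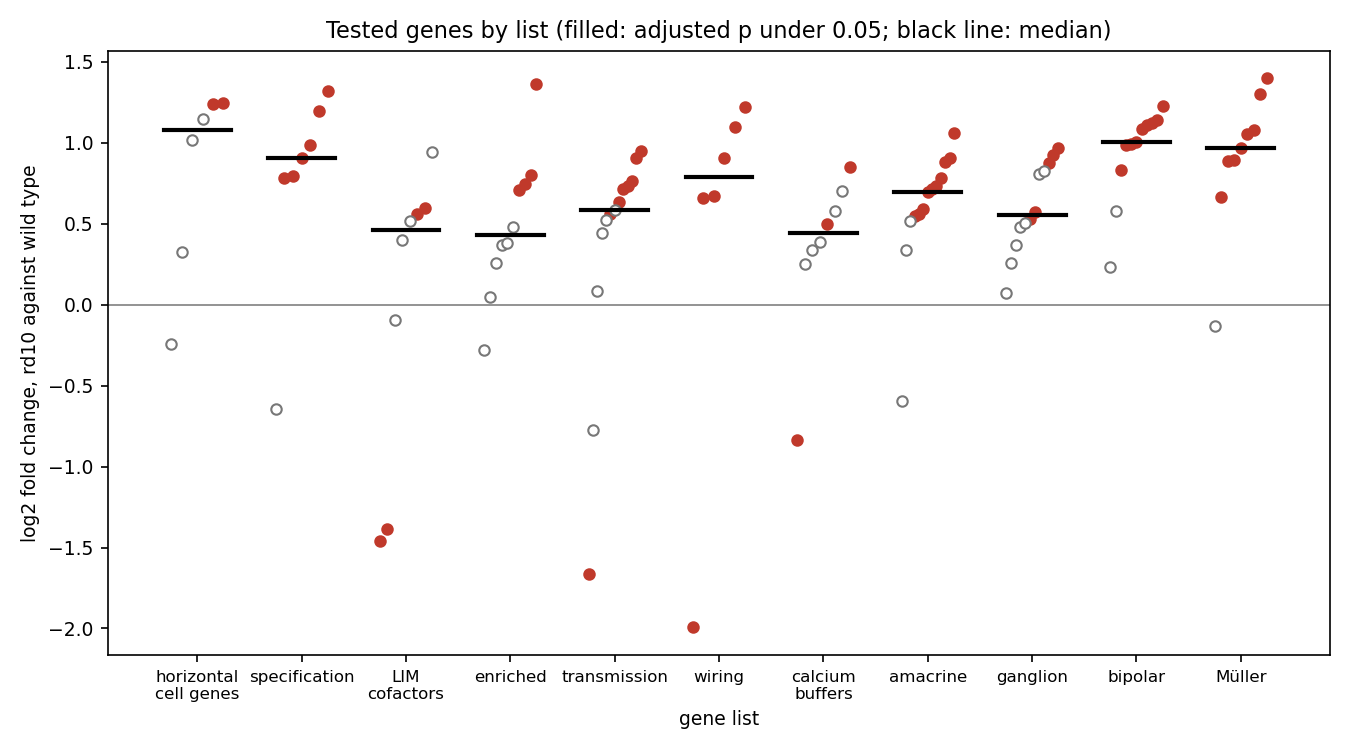
Log2 fold change in rd10 against wild type (vertical axis) of every tested gene of the lists on the horizontal axis; filled points have an adjusted p under 0.05 and black lines are list medians. The median of the 6 horizontal cell genes, 1.08, lies beside medians of 1.01 for bipolar and 0.97 for Müller glia genes, with Calb1 as the only one of the 6 below 0.

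Genes of other inner retinal cells were higher in the same libraries, where 14.5% of all tested genes were called higher against wild type and 13.9% lower. Of 13 amacrine genes 10 were higher and 0 lower against wild type (median 0.70), of 11 bipolar genes 9 and 0 (median 1.01), of 12 ganglion genes 5 and 0 (median 0.55), and of 9 Müller glia genes 8 and 0 (median 0.97). The summed level of the amacrine genes was 2960 to 3080 CPM in rd10, against 1980 to 2110 CPM in GFP and 1910 to 2010 CPM in wild type. The summed level of the 6 horizontal cell genes was 255 to 322 CPM in rd10, against 168 to 219 CPM in GFP and 158 to 214 CPM in wild type. Most of that sum was Prox1 and Calb1, neither of them called. Prox1 averaged 164.5 CPM in rd10, 85.3 in GFP and 74.2 in wild type, and made up most of the rise. Calb1 averaged 75.3, 89.5 and 88.9 CPM in the same order. All 12 rod genes and all 15 genes shared by rods and cones fell, with medians of -6.71 and -4.40. The rod genes summed to 531 to 1270 CPM in rd10, against 86300 to 95800 CPM in GFP and 78400 to 106000 CPM in wild type. Without the lens libraries, 1 wild type library was left. The medians against it were then 0.65 for amacrine, 0.94 for bipolar, 0.61 for ganglion and 0.95 for Müller glia genes. Those of the rod and shared genes were -6.89 and -4.36. In the fit of all libraries, of 9 cone genes 1 was higher and 2 were lower, of 15 lens genes 0 passed in either direction, and of 10 pigment epithelium genes 4 were higher. None of the listed marker genes was at 0 in all libraries (count 0).

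Scaled to the summed counts of the amacrine, ganglion and bipolar genes, the calls of Lhx1 and Onecut2 ended. Lhx1 then differed by 0.56 against wild type (edgeR adjusted p = 0.0779) and 0.51 against GFP (adjusted p = 0.11), and Onecut2 by 0.57 (adjusted p = 0.114) and 0.22 (adjusted p = 0.542). That scaling moved the median of all genes by -0.68 against wild type and -0.66 against GFP. Of the calls then made, 3.34% against wild type and 4.39% against GFP were higher. The part that the lower share of rod RNA, the age of the mice, lens RNA or the length pattern has in the differences was not tested.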

How the data were processed

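The authors deposited 1 table of raw read counts per gene for each of the 9 libraries, on mouse build mm9 per the submitters' processing notes. The aligner, counting program, annotation and strand setting are not given in the sources used here. Libraries held 9597635 to 12149448 counts. Groups and replicate numbers come from the labels, which call the replicates biological. So do the ages, except that of the GFP group, which is the protocol's age for the line called Gg13.

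The deposited counts were filtered with filterByExpr (minimum count 10, minimum total 15) and scaled by TMM. The 9 libraries entered a single model with a mean for each group (edgeR 4.0.16, R 4.3.3), a procedure first tested on simulated data. Each pair of groups was compared by the quasi-likelihood F-test, adjusted over all 14300 tested genes. DESeq2 1.42.0 and limma 3.58.1 served as alternatives. Member ratios used deposited counts plus 0.5, and profiles log2 CPM with a prior count of 2. Lengths and the length trend use GENCODE vM21 (GRCm38) transcripts, known for 98.9% of tested genes, and promoter windows are from RefSeq. Positions are those of the files with 1 added to each start.

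The members and gene lists were chosen with earlier results of these data known, and the motifs with the sequences in view. Of each horizontal cell list, up to 4 genes with the smallest adjusted p against wild type were named, and some of the genes this rule or the profile comparison gave are not reported here. Calb2, Gad1, Nefh, Nefl, Nefm, Onecut3, Plxna4, Rorb, Sall3 and the untested Foxn4 and Ptf1a were named after their values were seen. All 162 other list entries matched, Tfap2a and Tfap2b under the symbols Tcfap2a and Tcfap2b. The fit without GFP 2 and wild type 3 was added after seeing the data.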

Additional observations from a re-analysis of the deposited data

How the results depend on the processing

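Lhx1 kept its call against wild type in 20 of 22 alternatives and Onecut2 in 19 of 22. Against GFP Lhx1 kept it in 21 and Onecut2 in 15, while Onecut1 and Gja10 passed in 0 alternatives. Prox1, not called in the fits as reported, passed in 10 alternatives against wild type and in 2 against GFP. Scaled to inner retinal neuron genes, 7598 genes were called against wild type and 7539 against GFP, where the fits as reported called 4055 and 4312. With that scaling 7344 and 7208 of the calls were lower. The members called were then 1 in each comparison (Calb1, lower), and the differences of Gja10 (-0.35 against wild type, -0.28 against GFP), Ldb1 (-0.0867), Ldb2 (-0.12), Lrrc4 (-0.0246), Hpca (-0.18) and Eif4ebp2 (-0.31) turned negative. The share of higher genes among calls was 51.0% against wild type and 50.4% against GFP as reported, 77.0% and 79.3% by library totals, 64.8% and 68.0% by totals without photoreceptor genes, and 60.7% and 62.5% by upper quartile. Library totals moved the median of all genes by 0.29 and 0.33 and turned Calb1 (0.0512 and 0.0844), Sucla2 (0.0297), Ndufs1 (0.142) and Mbd2 (0.0475). Without the libraries above 1000 CPM of lens genes, 543 and 1846 genes and 0 and 1 members were called. Leaving out each library in turn gave 2455 to 5421 genes and 2 to 3 members against wild type, and 2602 to 4404 genes and 1 to 2 members against GFP. Gja10 then ran from -0.11 to 1.05 against wild type and from -0.0616 to 0.99 against GFP, Ndufs1 from -0.24 to 0.0114 and Eif4ebp2 from -0.0272 to 0.62. Without wild type 3 and GFP 2, Gja10 stood at -0.11 and -0.0661.

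In GFP against wild type the count of genes was 0 as reported, 2 by DESeq2 and 0 to 4 with a library left out. The small member differences there changed sign freely. Calb1 was -0.0156 by upper quartile, -0.0333 by library totals, -0.034 by totals without photoreceptor genes, -0.0065 scaled to inner retinal neuron genes, -0.0031 by limma voom and -0.10 without wild type 3 and GFP 2, where Onecut1 was -0.14. Gja10 was 0.0408 with the length trend removed. Without the lens libraries Lhx1 was -0.28, Onecut1 -0.74, Gja10 0.0504 and Prox1 -0.65. With a library left out, Lhx1 ran from -0.0579 to 0.23, Onecut1 from -0.0324 to 0.83, Calb1 from -0.0929 to 0.13, Gja10 from -0.64 to 0.67 and Prox1 from -0.12 to 0.59.

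Of the 15 member ratios, 0 passed under each alternative, several of which cannot reach the threshold. In the others, as in the comparison reported, a pair could pass only if many pairs reached the smallest p together. Ratios near 0 changed sign. Against wild type only, Lhx1 to Onecut2 was -0.00847 and Onecut2 to Prox1 0.0533. Without the lens libraries, Lhx1 to Prox1 was -0.0231 and Onecut1 to Onecut2 0.19. Without wild type 3 and GFP 2, Lhx1 to Onecut2 was -0.21, Onecut1 to Prox1 0.16 and Onecut2 to Prox1 0.55. With a library left out, Lhx1 to Onecut2 ran from -0.14 to 0.33, Lhx1 to Prox1 from -0.0315 to 0.22, Onecut1 to Onecut2 from -0.77 to 0.19, Onecut1 to Gja10 from -0.18 to 0.62, Onecut1 to Prox1 from -0.51 to 0.0324 and Onecut2 to Prox1 from -0.33 to 0.27.

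No pairing by replicate number was seen in the counts. The deviations of libraries with the same number correlated at -0.372 to 0.357, and those with different numbers at -0.426 to 0.485. Whether libraries were prepared in numbered sets cannot be told from these correlations. With the replicate number as a block, 3606 genes were called against wild type, 3908 against GFP and 0 between GFP and wild type, and 2, 2 and 0 members passed. The causes of these changes were not tested. Gja10 and Onecut1 had as few as 4 and 12 counts in a library. Their counting intervals did not overlap between some libraries of a group (Gja10 0.114 to 1.07 CPM without TMM in GFP 2 and 2.06 to 4.15 in GFP 3, Onecut1 1.76 to 3.83 in rd10 2 and 5.51 to 8.56 in rd10 3), so libraries of these groups differed by more than counting error.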
